A study of Mus musculus with 4 samples.

Results

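The genes described here mark or set the split between CD4 helper and CD8 cytotoxic T cells: the coreceptor genes Cd4, Cd8a and Cd8b1, the transcription factor genes Zbtb7b and Runx3, and the surface protein genes Crtam, Cd7, Tspan32 and Cd9. They were taken as all probe sets (groups of short probes for 1 transcript) that the platform annotation assigns to 1 of these 9 symbols alone. That gave 12 of the 22690 probe sets, with 2 each for Cd4, Cd8a and Zbtb7b and 1 each for the other genes. The probe sets with 1 symbol numbered 20380 and stood for 12393 genes.

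The study measured RNA of splenic T cells from untreated C57BL/6 mice on Affymetrix MOE430A_2.0 expression arrays. Its 4 groups were CD8 and CD4 T cells of mice labelled Gfi1 knockout, and CD8 and CD4 T cells of mice labelled wildtype. Cells had been stained for CD44, CD4 and CD8 and sorted by flow cytometry, all 4 samples are described as CD44 low, and naive cells were the stated aim. The Gfi1 protein is a transcriptional repressor of the zinc finger type. Each group had 1 array with the RNA of 2 mice pooled, which leaves the spread between animals unmeasured. The knockout titles end in N and the wildtype titles in M, letters that the labels do not explain, and the labels give neither the design of the knockout allele nor the age of the mice.

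As background, a developing T cell carries both coreceptors and then keeps 1 of them. CD4 binds MHC class II and the CD8 alpha and beta chains bind MHC class I, so the coreceptor fits the cell to the class of molecule its receptor recognises. ThPOK, the product of Zbtb7b, directs the helper fate and holds CD8 lineage genes silent, while RUNX3 directs the cytotoxic fate and silences Cd4 and Zbtb7b.

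Values are signal intensities. A floor was set at the 40th percentile of all signals, 93.9, below which signals were treated as equal; folds with 1 array below it are lower bounds, and none is given with both below it. Gfi1 itself read 2447.4 on the CD8 and 2891 on the CD4 array labelled knockout, against 1157.9 and 2272.2 on those labelled wildtype, so it was not lower under the knockout label, and where its probe set lies relative to the deleted part is not stated in the labels. Cd44 went against the description of all samples as CD44 low, with 252.4 (CD8) and 196.2 (CD4) on the arrays labelled knockout against 5740.3 and 8135.7 on those labelled wildtype. Genotype is therefore given as labelled. Pan T cell markers were even, with a summed signal of 76604 (CD8) and 75872 (CD4) on the arrays labelled knockout and 73718 and 71345 on those labelled wildtype, and 5 of 5 named markers above the floor on every array.

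**Figure D1:**
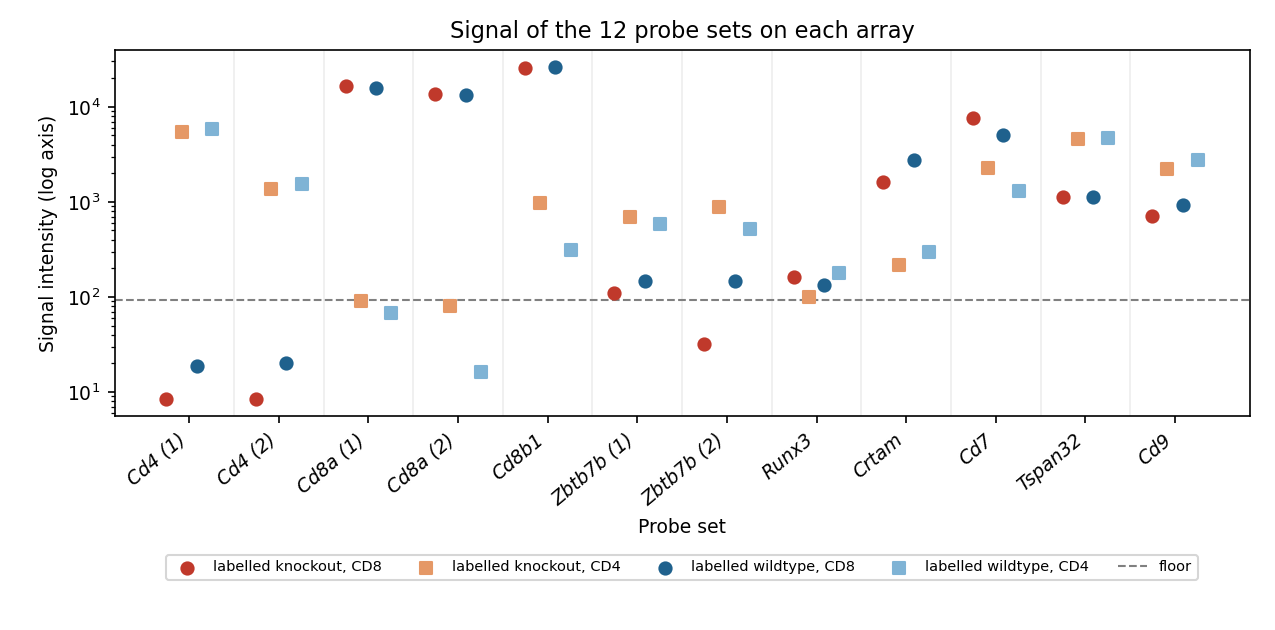
Signal intensity (log axis) of the 12 probe sets on each of the 4 arrays, 1 point per array; the dashed line is the floor of 93.9, and numbers in brackets tell probe sets of 1 gene apart, the brighter first. For every probe set but that of Runx3, the CD8 arrays lie together on 1 side of the CD4 arrays.

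CD8 and CD4 arrays were separated by the coreceptor genes under both genotype labels, in the direction of the subset labels. Because the cells had been sorted on the CD4 and CD8 proteins, these values check the sort. Cd4 read 8.4 on the CD8 array and 5469.8 on the CD4 array labelled knockout, and 18.9 and 5901.3 on the CD8 and CD4 arrays labelled wildtype. It was at least 58.3-fold lower in CD8 cells under the knockout label and at least 62.8-fold lower under the wildtype label. The dimmer Cd4 probe set showed the same direction, with 8.4 against 1378.5 and 20.2 against 1558.9.

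Cd8a, which encodes the alpha chain of CD8, was the reverse. It read 16639.2 on the CD8 array and 89.6 on the CD4 array labelled knockout, and 15920.4 and 67.2 on those labelled wildtype, so both CD4 arrays lay below the floor. The difference was at least 177-fold under the knockout label and at least 170-fold under the wildtype label. The other Cd8a probe set read 13593.1 and 79.7, and 13213.2 and 16.3, in the same order of arrays.

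Cd8b1, which encodes the beta chain and is found on conventional CD8 T cells beside the alpha chain, was high on both CD8 arrays and above the floor in CD4 cells as well. It read 25714.7 on the CD8 array and 970.5 on the CD4 array labelled knockout, a 26.5-fold difference, and 26221.9 and 312.1 on those labelled wildtype, an 84.0-fold difference. The CD4 array thus held 3.77% of the CD8 array's signal under the knockout label and 1.19% under the wildtype label. For the brighter Cd8a probe set these shares were 0.538% and 0.422%, both from signals below the floor. The Cd8b1 signal of the CD4 arrays therefore had no counterpart above the floor in Cd8a. In RNA of whole sorted samples, a few cells with much of a transcript and many cells with little of it cannot be told apart.

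Zbtb7b, the ThPOK gene, was higher in CD4 cells on both of its probe sets. The first read 110.4 on the CD8 array and 700.6 on the CD4 array labelled knockout, 6.35-fold lower in CD8 cells, and 148 and 586.5 on those labelled wildtype, 3.96-fold lower. The second read 31.7, below the floor, and 886.1 under the knockout label, at least 9.44-fold lower in CD8 cells, and 148.3 and 516.4 under the wildtype label, 3.48-fold lower. Both CD8 arrays thus lay below both CD4 arrays on each probe set. The sizes rest on dim CD8 signals: with the floor at the 60th percentile, which lies above them, the log2 differences were bounded only at -0.64 and -0.98 or lower under the knockout label and at -0.38 and -0.20 or lower under the wildtype label, so none of the 4 was then shown to be 2-fold.

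Runx3, whose product opposes ThPOK, did not separate the subsets. It read 162.2 on the CD8 array and 101 on the CD4 array labelled knockout, and 132 and 179.4 on those labelled wildtype. CD8 was 1.61-fold higher under the knockout label and 1.36-fold lower under the wildtype label, and all 4 signals lay between 101 and 179.4, close to the floor of 93.9. From highest to lowest the order was wildtype CD4, knockout CD8, wildtype CD8 and knockout CD4 by label, and with 1 array each no neighbours in that order can be said to differ. Only this probe set carries the Runx3 symbol alone, so its values rest on 1 dim measurement per array.

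Promoter sequences of these genes are shown because the fates are set by RUNX factors and Gfi1 is the gene named in the labels. Of the 9 genes, 5 matched the RefSeq promoter table (GRCm38.p6; 250 bases before to 50 after a transcript start), with 7 windows. Capitals mark the letters TGTGGT, a RUNX motif core, or AAATCA, a core of the GFI1 motif, on either strand (ACCACA and TGATTT as reverse complements), which nowhere overlap here. The windows shown are those of Cd8a (chr6:71373177-71373476, + strand), Runx3 (chr4:135120395-135120694, + strand), Tspan32 (chr7:143004796-143005095, + strand) and the second start of Zbtb7b (chr3:89387622-89387921, - strand), each written 5′ to 3′.
Cd8a: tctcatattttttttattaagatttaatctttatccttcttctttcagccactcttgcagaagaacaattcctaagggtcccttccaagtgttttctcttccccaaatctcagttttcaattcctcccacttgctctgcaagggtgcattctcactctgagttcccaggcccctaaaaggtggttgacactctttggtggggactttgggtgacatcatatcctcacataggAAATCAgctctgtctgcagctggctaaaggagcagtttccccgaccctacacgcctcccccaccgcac
Runx3: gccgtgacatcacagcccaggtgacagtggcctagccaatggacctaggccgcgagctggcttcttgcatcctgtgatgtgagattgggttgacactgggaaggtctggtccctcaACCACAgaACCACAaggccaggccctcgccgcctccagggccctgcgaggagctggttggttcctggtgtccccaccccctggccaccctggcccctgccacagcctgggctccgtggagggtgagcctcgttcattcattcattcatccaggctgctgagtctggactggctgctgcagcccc
Tspan32: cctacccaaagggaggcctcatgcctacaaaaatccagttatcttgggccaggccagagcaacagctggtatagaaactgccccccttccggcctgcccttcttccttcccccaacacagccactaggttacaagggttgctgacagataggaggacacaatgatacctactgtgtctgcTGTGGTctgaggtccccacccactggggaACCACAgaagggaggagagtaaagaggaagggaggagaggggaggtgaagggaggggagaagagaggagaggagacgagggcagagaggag
Zbtb7b: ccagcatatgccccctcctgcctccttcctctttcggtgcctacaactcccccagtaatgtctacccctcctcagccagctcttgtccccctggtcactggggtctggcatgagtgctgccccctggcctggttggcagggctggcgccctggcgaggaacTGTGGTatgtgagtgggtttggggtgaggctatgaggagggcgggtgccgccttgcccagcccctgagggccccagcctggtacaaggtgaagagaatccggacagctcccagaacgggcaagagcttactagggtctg
Runx3 and Tspan32 each held 2 matches to the RUNX letters in these windows and Zbtb7b held 1, against 16.8% of all 32851 promoter windows with at least 1. Cd8a held no RUNX match and 1 match to the GFI1 letters, which 4598 of the 32851 windows held. The other windows, of Cd9 and of further starts of Runx3 and Zbtb7b, held neither. A match is a run of letters and not a measured binding site.

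Of the surface protein genes, Crtam and Cd7 were higher in CD8 cells. Crtam encodes an immunoglobulin-family receptor of activated cytotoxic and natural killer cells that binds the adhesion molecule CADM1. It read 1615.2 on the CD8 array and 216.6 on the CD4 array labelled knockout, a 7.46-fold difference, and 2780.7 and 295.6 on those labelled wildtype, a 9.41-fold difference. Cd7, which encodes an immunoglobulin-family protein of T and natural killer cells, read 7680.2 and 2269.6 under the knockout label, 3.38-fold higher in CD8 cells, and 5002.4 and 1298.3 under the wildtype label, 3.85-fold higher. Both genes were above the floor in CD4 cells too, where Cd8a was below it. With the floor at the 60th percentile, above both CD4 signals of Crtam, its log2 differences were at least 1.84 under the knockout and at least 2.63 under the wildtype label.

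Tspan32 and Cd9, both genes of tetraspanins (membrane proteins that organise other surface proteins), were higher in CD4 cells. Tspan32 is expressed in blood cells and restrains T cell proliferation in mice. It read 1138.5 on the CD8 array and 4595.9 on the CD4 array labelled knockout, 4.04-fold lower in CD8 cells, and 1126.3 and 4693.8 on those labelled wildtype, 4.17-fold lower. Cd9 read 715 and 2196.1 under the knockout label, 3.07-fold lower in CD8 cells, and 934.8 and 2752.3 under the wildtype label, 2.94-fold lower. For both genes the sizes under the 2 labels were close.

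Counted together, 5 of 12 probe sets exceeded a 2-fold difference towards CD8 cells and 6 towards CD4 cells, under the knockout label and again under the wildtype label. Of all probe sets compared, 1.87% were that much higher and 1.45% that much lower under the knockout label, and 3.09% and 4.65% under the wildtype label. Runx3 was the probe set outside both counts. These counts describe the genes and give no separate support, since the genes were chosen with earlier results of this contrast known. Ranked over 12393 genes by the smaller of the 2 differences, Cd8a, Cd8b1 and Crtam came 1st, 2nd and 4th of those higher in CD8 cells and Cd7 came 18th. Cd4, Tspan32, Zbtb7b and Cd9 came 1st, 3rd, 4th and 13th of those lower.

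**Figure D2:**
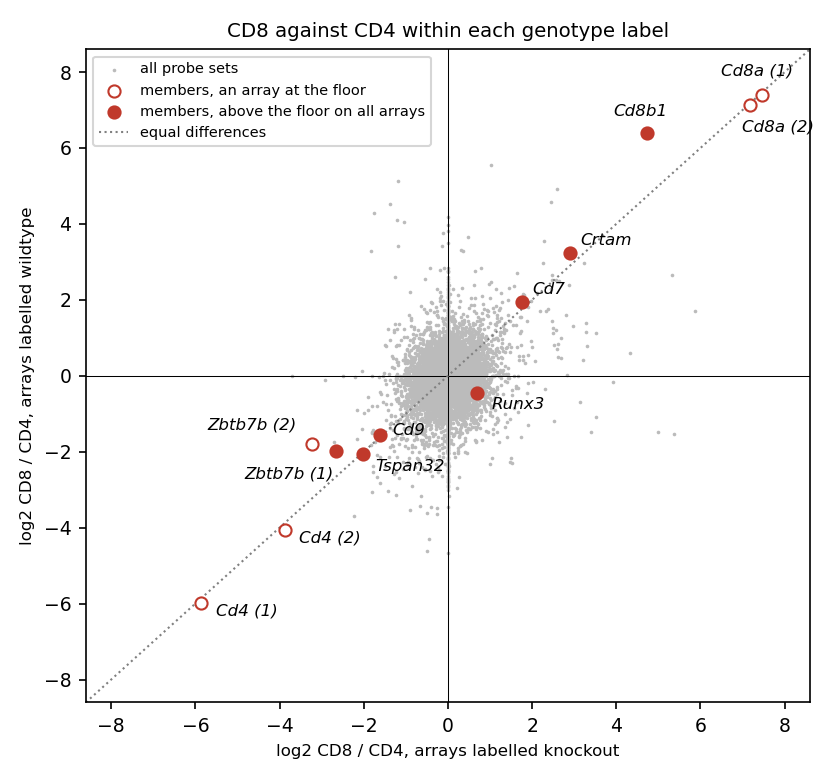
Log2 ratio of CD8 to CD4 signal on the arrays labelled knockout (x axis) and wildtype (y axis), 1 point per probe set, with the 12 probe sets in red and all others in grey; open symbols have an array at the floor. Of the 12, only Runx3 differs in direction between the labels, and Cd8b1 lies off the line of equal differences at 4.73 and 6.39. Agreement in direction was not counted over all probe sets.

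Limma with subset and label as additive terms, which leaves 1 residual degree of freedom, called 9 of the 12 probe sets between the subsets at an adjusted p under 0.05. Both Cd8a probe sets, Cd8b1, Crtam and Cd7 rose in CD8 cells, and both Cd4 probe sets, Tspan32 and Cd9 fell. Over all 13989 probe sets tested, 0.129% rose and 0.0429% fell. This count gives no separate support either. The cells were sorted on the coreceptors, and the other genes were chosen with earlier results of this contrast known. The log2 differences were 5.56 ± 0.35 (SE, n = 2 arrays each) for Cd8b1 (limma, adjusted p = 0.00522), 3.07 ± 0.23 for Crtam (adjusted p = 0.0075), 1.85 ± 0.13 for Cd7 (adjusted p = 0.00685), -2.04 ± 0.13 for Tspan32 (adjusted p = 0.00522) and -1.59 ± 0.15 for Cd9 (adjusted p = 0.028). Zbtb7b was not called (limma, adjusted p = 0.0892 and 0.123 for its probe sets), and neither was Runx3 (adjusted p = 0.956). The residual of this fit is how far the difference between the subsets varied between the labels, joined with that of other probe sets of like signal, so it measures no spread between animals. For Cd4 and Cd8a both arrays of 1 subset were at the floor, so their calls rest on floored values and no fitted difference is given. Without limma's trend of spread on signal, 3 of the 12 were called, both Cd8a probe sets and the brighter Cd4 one, which rest on floored values. Each of the 5 genes with a fitted difference above lost its call there, with adjusted p (limma) of 0.168 for Cd8b1, 0.138 for Crtam, 0.238 for Cd7, 0.212 for Tspan32 and 0.257 for Cd9. Cd9 also lost it after quantile normalization (limma, adjusted p = 0.0751) and with arrays centred on their medians (limma, adjusted p = 0.07).

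Differences of the 12 probe sets with the genotype label were counted in the same way. In CD4 cells, 1 of the 10 probe sets that could be compared was at least 2-fold higher under the knockout label and 0 at least 2-fold lower, against 2.2% and 7.09% of all probe sets. In CD8 cells 0 of 10 were that far apart in either direction, against 1.33% higher and 3.87% lower. Over 10 probe sets, counts this small cannot be told apart from those shares. The limma label term called 0 of the 12, with 2 at an unadjusted p under 0.05 (1783 of all 13989 probe sets), while 0.136% of all probe sets rose and 0.422% fell under the knockout label. A difference that misses the threshold is not shown to be absent.

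Where each coreceptor was high, its signal differed little between the labels. Cd4 in CD4 cells had a log2 difference of -0.11 between the knockout and the wildtype label on the brighter probe set and -0.18 on the other. Cd8a in CD8 cells had 0.06 and 0.04, and Cd8b1 in CD8 cells -0.03. With arrays centred on their medians the Cd4 values turned to 0.20 and 0.14 and that of Cd8b1 to 0.19, so none of these directions is firm. Tspan32 was the gene closest to level in both subsets, at 0.02 in CD8 and -0.03 in CD4 cells, or 0.23 and 0.28 with median centring.

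The 2-fold difference was that of Cd8b1 in CD4 cells, which read 970.5 on the array labelled knockout against 312.1 on that labelled wildtype, a 3.11-fold difference. Cd8a lay below the floor on both of these arrays. The cytotoxic marker Gzmm, a granzyme gene, was below the floor there as well, at 89.5 against 79.9. It was dim on the CD8 array labelled knockout too, at 190.1. Of 13 cytotoxic CD8 T cell genes compared between these CD4 arrays, 1 was at least 2-fold higher under the knockout label and 9 lower. Over all probe sets, 2.2% were that much higher and 7.09% lower. The higher one was the perforin gene Prf1, at 1375.2 against 313.9. The Cd8b1 probe set is one that the array's naming marks as shared by several transcripts, and no other probe set carries the symbol alone.

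Cd7 and Crtam differed with the label in opposite directions, and each in 1 direction in both subsets. Cd7 was higher under the knockout label, 1.54-fold in CD8 cells and 1.75-fold in CD4 cells, and its fitted log2 difference was 0.71 ± 0.13 (limma, SE; adjusted p = 0.0923), with 2 of 2 pairs of arrays in that direction. Crtam was lower, 1.72-fold in CD8 and 1.36-fold in CD4 cells, at -0.62 ± 0.23 (limma, SE; adjusted p = 0.325), also in 2 of 2 pairs. Cd9 was lower by less, with log2 differences of -0.39 in CD8 and -0.33 in CD4 cells. With arrays centred on their medians, Cd9 in CD4 cells came to -0.01, and Crtam in CD4 cells moved from -0.45 to -0.13.

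Markers of memory T cells differed between the same arrays. All 4 markers (Cd44, Il2rb, Ccl5 and Cxcr3) were above the floor on every array, and their summed signal was 9239 in CD8 and 1453 in CD4 cells labelled knockout, against 54096 and 40610 in those labelled wildtype. Dendritic cell markers stood out on the CD8 array labelled wildtype, where 5 of 5 named markers were above the floor with a sum of 2094.5, against 1 of 5 and 219.1 on the CD8 array labelled knockout, 2 of 5 and 406.4 on the CD4 array labelled knockout, and 0 of 5 and 316 on the CD4 array labelled wildtype. Some dendritic cells carry the CD8 alpha chain. Natural killer cell markers were also brightest on the CD8 array labelled wildtype, where Tyrobp and Fcer1g of 3 named markers were above the floor with a sum of 1134.9, against 0 of 3 and 58.1 on the CD8 array labelled knockout, 2 of 3 and 281 on the CD4 array labelled knockout, and 2 of 3 and 524.9 on the CD4 array labelled wildtype. The defining marker Ncr1 was below the floor on all 4, and Fcer1g was level on the CD8 and CD4 arrays labelled wildtype (250.8 and 248.4). B cell markers summed to 1722.5 (CD8) and 1577.6 (CD4) under the wildtype label, against 902.8 and 287 under the knockout label. Of 5 named, 3 and 2 were above the floor under the wildtype label and 1 and 1 under the knockout label. Cd79a and Ms4a1 were below it on all 4 arrays. Cd79b was near level on the CD8 arrays, at 759.1 labelled wildtype and 737.5 labelled knockout. Monocyte and macrophage markers summed to 596.3 and 406.7 under the wildtype label, against 300.3 and 301.8 under the knockout label. Of 4 named, 2 and 3 were above the floor under the wildtype label and 1 and 1 under the knockout label. Cd14 was below it on all 4 arrays, and Csf1r lay between 192.6 and 238.1 on all 4. The part of these marker groups in the differences of Cd7, Crtam and Cd9 was not tested.

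Zbtb7b and Runx3 differed with the label in opposite directions in the subsets. The first Zbtb7b probe set was 1.34-fold lower in CD8 and 1.19-fold higher in CD4 cells under the knockout label, and the second was at least 1.58-fold lower and 1.72-fold higher. The gap between CD8 and CD4 cells in Zbtb7b was thus wider under the knockout label on both probe sets. Runx3 was 1.23-fold higher in CD8 and 1.78-fold lower in CD4 cells. With 1 array per group these opposite directions could not be tested.

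**Figure D3:**
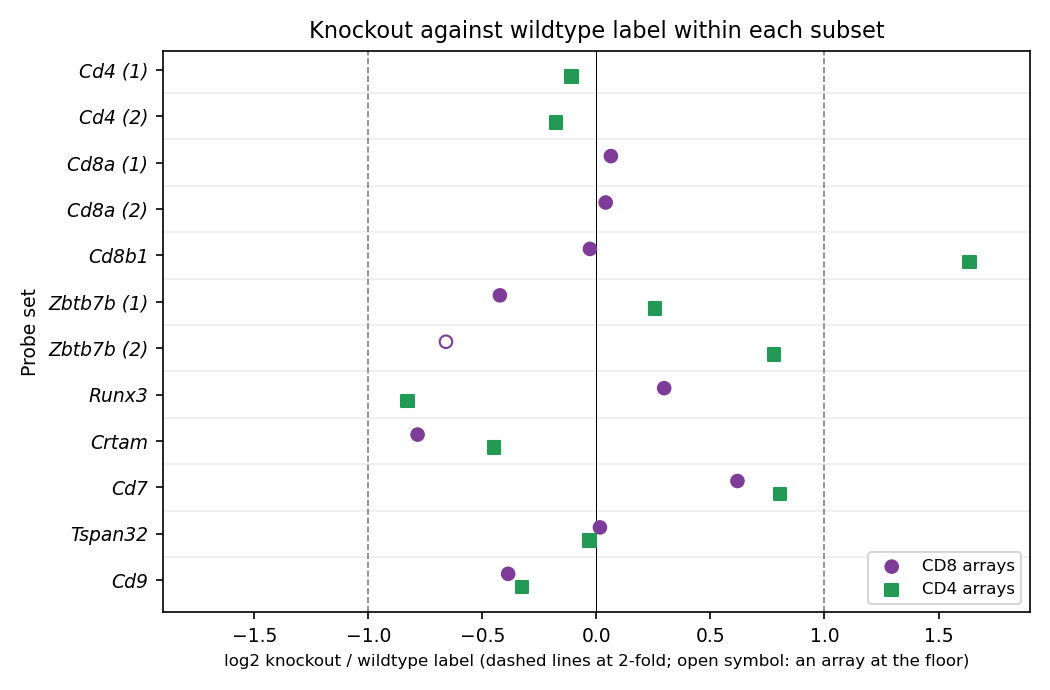
Log2 ratio of the knockout to the wildtype label in CD8 (circles) and CD4 cells (squares), 1 row per probe set; the open symbol has an array at the floor, and pairs with both arrays at the floor are left out. Only Cd8b1 in CD4 cells, at 1.64, lies beyond a 2-fold difference.

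Genes outside the 9 lay far from Cd4, Cd8a and Cd8b1 by a distance that grows with the size of a difference. It was the Euclidean distance between log2 signals over the 4 arrays, each gene centred on its mean, so that 0 is an identical pattern. The smaller log2 difference of the 2 labels was 7.41 for Cd8a, -5.86 for Cd4 and 4.73 for Cd8b1. Outside the 9 it reached 2.98 (Eomes). These distances therefore cannot tell another shape from a smaller difference. The gene nearest to Cd4 was Izumo1r, the folate receptor 4 gene of CD4 T cells, at a distance of 3.10, followed by St3gal2 (3.81) and Foxp3 (3.94). The nearest to Cd8a were Plac8 (3.83), Fcgrt (4.08) and the granzyme gene Gzma (4.38). Against them, the nearest genes to the other members lay at 0.05 to 0.49, apart from Cd8b1, whose nearest were Fcgrt (2.24), Zfp296 (3.02) and Haao (3.21).

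The smaller differences had closer company. L1cam, Ephb6 and Tnfrsf25 were the 3 nearest genes both to Zbtb7b, at 0.47, 0.75 and 0.78, and to Tspan32, at 0.32, 0.47 and 0.31. L1cam, a neural cell adhesion gene, read 113.4 on the CD8 and 506.6 on the CD4 array labelled knockout, against 124.8 and 395.1 on those labelled wildtype. Nearest to Crtam were Zfp296 (0.49), Reck (0.60) and Tm6sf1 (0.62), and nearest to Cd7 were Rcn3 (0.35), Rras2 (0.39) and Dlg5 (0.40). Nearest to Cd9 were Prg4, Psen2 and Pcbp4, at 0.30, 0.30 and 0.33. The distances to Runx3 were the smallest (Trafd1 at 0.05), as its own profile is nearly flat. Over 4 arrays such likeness is a description only.

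Outside the 9 genes, the largest differences that held under both labels included further lineage genes. Eomes, a T-box factor gene of cytotoxic and memory cells, was 9.34-fold higher in CD8 cells under the knockout label and 7.90-fold under the wildtype label, with 1741.2 on the CD8 and 186.5 on the CD4 array labelled knockout and 5659.5 and 716.5 on those labelled wildtype (limma, adjusted p = 0.00481). Plac8, Gzma, Mcoln2 and Reck followed, at 6.31-fold, 6.04-fold, 5.70-fold and 5.63-fold as the smaller of the 2 folds. In the other direction Izumo1r led at 4.73-fold lower in CD8 cells (limma, adjusted p = 0.0433), before Cd200, Ecm1, Adh1 and Ckb at 3.44-fold, 3.41-fold, 3.35-fold and 3.32-fold. The coreceptor genes, Crtam, Zbtb7b and Tspan32 stand among these or above them. Without limma's trend of spread on signal, neither Eomes nor Izumo1r was called between the subsets.

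Genes of cytotoxic CD8 T cells were mostly higher in CD8 cells. Of 14, 11 were at least 2-fold higher under the knockout label and 8 under the wildtype label, 7 of them under both. The background over all genes was 2.13% and 3.23%. The median log2 difference of CD8 over CD4 was 1.69 under the knockout and 1.76 under the wildtype label, against -0.01 for all genes under either. Under the knockout label the values of Gzmm, Gzmb, Gzmk, Klrc1, Xcl1, Fasl and Ifng are bounds, with 1 array below the floor. Under the wildtype label only that of Gzmm is. The counts and medians of the 2 labels are therefore not measured alike. Limma called 3 of the 14 as higher in CD8 cells, Eomes, Klrd1 and Ctsw, where 0.129% of all probe sets rose. Klrd1 encodes the CD94 chain of killer lectin receptors and read 15978.5 on the CD8 and 3695.3 on the CD4 array labelled knockout, against 13449.7 and 2955.2 on those labelled wildtype (limma, adjusted p = 0.00481). Ctsw, a cathepsin gene of killer cells, had a fitted log2 difference of 1.87 (limma, adjusted p = 0.00594). Without limma's trend of spread on signal, none of these 3 genes was called.

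The sizes in this list were uneven between the labels. Nkg7, a granule protein gene, had log2 differences of CD8 over CD4 of 5.86 under the knockout label and 1.70 under the wildtype label, and Gzmm had at least 1.02 and at least 5.56. The gene of Fas ligand, Fasl, was the one at least 2-fold lower in CD8 cells under both labels, with log2 differences of -1.79 or lower under the knockout label and -1.52 under the wildtype label. For the label, limma called 6 of the 14 as lower under the knockout label, where 0.422% of all probe sets fell. They were Eomes, Gzmb, Gzmk, Klrc1, Fasl and Ifng, with adjusted p (limma) between 0.0107 and 0.0451. Gzmb, Gzmk, Klrc1 and Ifng were below the floor on the CD4 array labelled knockout, and Fasl on the CD8 array labelled knockout. Their calls therefore rest partly on floored values. Without limma's trend of spread on signal, 0 of all 13989 probe sets were called for the label. The memory T cell markers, with sums of 9239 and 1453 in CD8 and CD4 cells labelled knockout against 54096 and 40610 in those labelled wildtype, were lower on the same arrays, and their part in these 6 calls was not tested.

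Of 11 genes of helper CD4 T cells that could be named, 4 were at least 2-fold lower in CD8 cells under the knockout label and 6 under the wildtype label, where 1.41% and 5.18% of all genes were, and 4 were so under both. Il4ra, an interleukin receptor gene, was 2.47-fold higher in CD8 cells under the wildtype label, and 0 of the 11 were at least 2-fold higher under the knockout label. The median log2 differences were -0.67 and -1.05. Izumo1r read 555.3 on the CD8 and 2628.7 on the CD4 array labelled knockout, and 546.1 and 7023.8 on those labelled wildtype. It was the member that limma called between the subsets, where 0.0429% of all probe sets fell. Cxcr5, a chemokine receptor gene of follicular helper cells, was called for the label, lower under the knockout label (limma, adjusted p = 0.0223). Over all probe sets, 0.422% fell under that label. The calls of Izumo1r and Cxcr5 were both lost without limma's trend of spread on signal. Memory T cell markers were lower on the same arrays labelled knockout, and their part in the call of Cxcr5 was not tested. The costimulatory receptor gene Tnfrsf4 had log2 differences of -1.43 and -3.02 and the checkpoint gene Ctla4 -0.67 and -3.43 under the knockout and the wildtype label. Foxp3, the factor of regulatory T cells, was under the floor in CD8 cells of either label and read 221.3 on the CD4 array labelled knockout and 823.6 on that labelled wildtype. Regulatory T cell markers as a group (Foxp3, Il2ra, Ctla4 and Ikzf2) had a summed signal of 859 on the CD4 array labelled knockout, with 2 of 4 above the floor, and 6127 on that labelled wildtype, with 4 of 4. Their part in the sizes of this list was not tested.

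**Figure D4:**
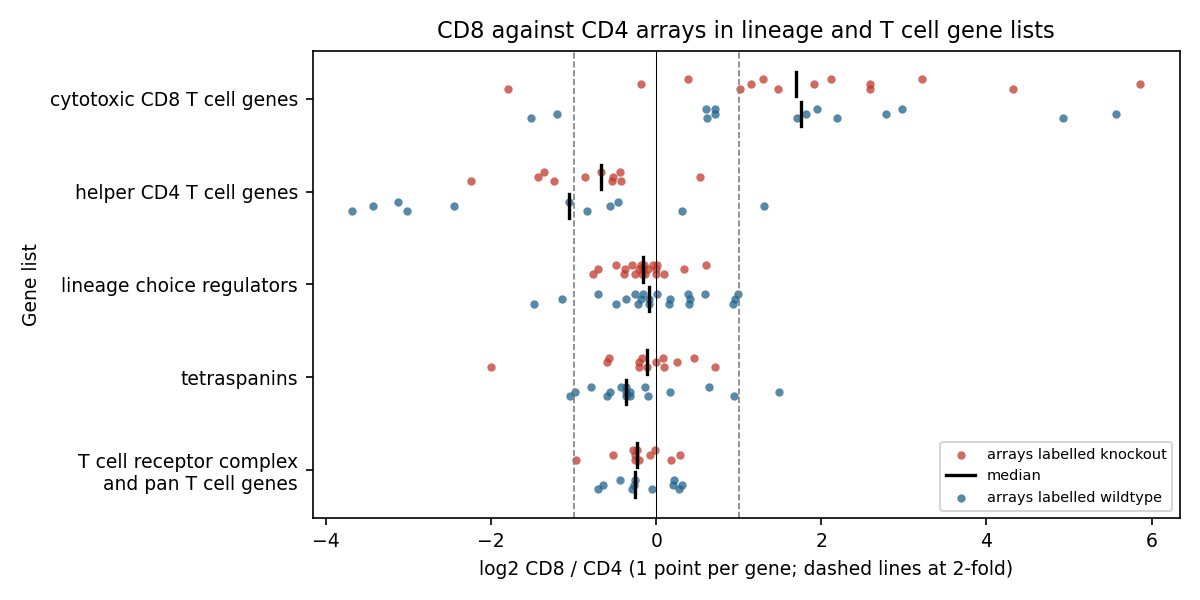
Log2 ratio of CD8 to CD4 signal for genes of 5 lists, 1 point per gene with a signal above the floor on at least 1 of the compared arrays, for the arrays labelled knockout (upper, red) and wildtype (lower, blue); bars are medians and dashed lines mark 2-fold. Cytotoxic genes lie mostly to the right and helper genes mostly to the left, while lineage choice regulators and pan T cell genes lie around 0. Values with 1 array below the floor are bounds and are not marked.

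Of 21 named regulators known to act in the choice of lineage, 0 were at least 2-fold apart between the sorted subsets under the knockout label, and under the wildtype label 2 were lower in CD8 cells and 0 higher. Of all genes, 2.13% were that much higher and 1.41% that much lower under the knockout label, and 3.23% and 5.18% under the wildtype label. Limma called 0 of the 21 between the subsets, and 6 had an unadjusted p under 0.05, as had 1259 of all 13989 probe sets. Runx1, the paralogue of Runx3 that represses Cd4 in immature cells, read 458.9 on the CD8 and 778.2 on the CD4 array labelled knockout, and 396.7 and 1103.1 on those labelled wildtype. Gata3, which acts upstream of ThPOK, read 662 and 868.8, and 935.9 and 2063.7, in the same order of arrays. Both were thus lower in CD8 than in CD4 cells under either label. Cbfb, the shared partner subunit of RUNX proteins, was even, with log2 differences of -0.01 and -0.22.

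Satb1, a chromatin organiser that acts on the ThPOK and Runx3 genes, read 13119.2 on the CD8 and 14385.3 on the CD4 array labelled knockout, and 10977.9 and 5506.2 on those labelled wildtype. Its value on the CD4 array labelled wildtype was the lowest of the 4. Myb was the list member called for the label, lower under the knockout label with a fitted log2 difference of -1.85 (limma, adjusted p = 0.00905). It had log2 differences of 0.60 and 0.93 between the subsets. Over all probe sets, 0.422% fell under the knockout label. The call was lost without limma's trend of spread on signal. Memory T cell markers were lower on the same arrays labelled knockout, and their part in this call was not tested.

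Of 11 named genes of the T cell receptor complex and other pan T cell genes, 0 were at least 2-fold apart between CD8 and CD4 cells under either label, against the same 1.41% to 5.18% of all genes in a direction. Their median log2 differences were -0.24 and -0.25. Cd5, an inhibitor of receptor signalling, had the largest difference, with log2 values of -0.97 under the knockout and -0.70 under the wildtype label. Limma called 0 of the 11 between the subsets, and 3 had an unadjusted p under 0.05, beside the 1259 of 13989.

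Of 13 tetraspanin genes other than Tspan32 and Cd9 that could be compared under the knockout label, 1 was at least 2-fold lower in CD8 cells and 0 higher, where 1.41% and 2.13% of all genes were. Of 17 under the wildtype label 1 was lower and 1 higher, where 5.18% and 3.23% were. Cd81, a widely expressed tetraspanin gene, read 254.1 on the CD8 and 1016.2 on the CD4 array labelled knockout, and 1009.6 and 1994 on those labelled wildtype, with log2 differences of -2.00 and -0.98. Tspan13 had -0.21 and -1.04, and the blood cell tetraspanin gene Cd37 -0.60 and -0.37. Tspan4 ran the other way, at 0.71 or higher and 0.95 or higher, with both CD4 arrays below the floor. Limma called 0 of the 18 above the floor between the subsets, and 5 had an unadjusted p under 0.05, beside the 1259 of 13989.

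Among the nectin-family genes around Crtam, 4 could be compared under each label. Under the knockout label 1 was at least 2-fold lower in CD8 cells and 0 higher, where 1.41% and 2.13% of all genes were. Under the wildtype label 0 were lower and 1 higher, where 5.18% and 3.23% were. The receptor gene Cd96 was near level, with log2 differences of 0.39 under the knockout and -0.03 under the wildtype label, and the poliovirus receptor gene Pvr had -1.04 and -0.75. Cadm1, the gene of the CRTAM ligand, was above the floor on the CD8 array labelled wildtype alone, at 620.9, which is the array with the dendritic cell markers. Of 8 costimulatory immunoglobulin-family genes compared under the knockout label, 2 were at least 2-fold lower in CD8 cells and 1 higher. Of 9 under the wildtype label 2 were lower and 0 higher, beside the same shares of all genes. Cd200 (-1.78 and -2.37) and Slamf1 (-1.08 and -2.45) were that much lower under both labels. Cd160 had 2.29 under the knockout and -0.34 under the wildtype label. Sectm1b, the gene of a CD7 ligand, and its relative Sectm1a lay below the floor on all 4 arrays.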

How the data were processed

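Deposited values were linear signal intensities per probe set for 4 arrays, 1 per group, each with the RNA of 2 mice pooled, per the labels. GCOS 1.4 and MAS5 are named in the submitters' processing notes, which were all that was used here on the authors' steps. Precision is limited by the number of arrays.

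Of 22690 probe sets, 64 controls were left out. Probe sets were named from the platform annotation where it gives 1 symbol (20380), with symbols updated through gene IDs (20351 matched RefSeq). Signals were floored at the 40th percentile (93.9) and taken to log2. Differences are CD8 over CD4 within a label and knockout over wildtype label within a subset, with 2-fold as the size counted. Where 1 value a gene was needed, its brightest probe set by mean log2 value was used. Limma 3.58.1 (R 4.3.3; lmFit, eBayes with trend, prior degrees of freedom 5.32) was fitted with subset and label as terms on 13989 probe sets that exceeded the floor on any array, with Benjamini-Hochberg adjustment over all of them and a threshold of 0.05. It has 1 residual degree of freedom, and the subset arrays may share mice. The difference of differences leaves no degree of freedom and was not tested.

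The 9 genes, the 7 gene lists and the tests were chosen with earlier results of these data known. Named genes follow a rule: all probe sets of the 9 genes; the 3 genes most like each; the 5 others each way with the largest smaller difference between the subsets; and up to 4 genes a list by the size of the subset difference, with any that limma called. Other genes (such as Cbfb, Cadm1, Sectm1a, Fasl, and Gzmm and Prf1 in CD4 cells) were chosen after their values were seen. Alternatives were quantile and median scaling, other floors, log2 of the value plus 16, a stricter filter, no trend, 1 value a gene, and leaving out multi-transcript probe sets. Other steps ran in Python 3.11.15 with pandas 2.3.3, numpy 2.4.6 and matplotlib 3.10.9.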

Additional observations from a re-analysis of the deposited data

Results flagged for a closer look

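Zbtb7b and Runx3 stood out because the effect of the genotype label ran in opposite directions in the subsets; with 1 array per group the difference was not tested. For the brighter Zbtb7b probe set, the log2 difference between the knockout and the wildtype label was -0.42 in CD8 and 0.26 in CD4 cells, apart by -0.68. For the other it was -0.66 or lower in CD8, with the array labelled knockout at the floor, and 0.78 in CD4 cells, apart by -1.44 with that array at the floor. For Runx3 it was 0.30 in CD8 and -0.83 in CD4 cells, apart by 1.13, and the same 1.13 separates its log2 differences of CD8 over CD4, 0.68 under the knockout and -0.44 under the wildtype label. All 4 Runx3 signals lay within 2-fold of the floor. Cd8b1 was not of opposite direction, since its CD8 value was near level (-0.03), but its difference between CD8 and CD4 cells was smaller under the knockout label by -1.66 on the log2 scale.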

How the results depend on the processing

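No paired analysis was possible beyond the limma fit, which sets CD8 against CD4 within each label over 2 pairs of arrays, because each group has 1 array. Of 162 values of member differences that were at least 2-fold as reported, recomputed under the alternatives, 0 changed direction, 26 moved by over 1.5 times and 158 stayed at least 2-fold. The other 4 were those of Zbtb7b with the floor at the 60th percentile, so the 6 lower in CD8 cells became 4 under either label. The counts of 5 higher and 6 lower in CD8 cells under the knockout label became 3 and 3 among probe sets above the floor on both arrays. This leaves out Cd4, Cd8a and the second Zbtb7b probe set. Under the wildtype label it leaves out Cd4 and Cd8a, and the 5 higher and 6 lower became 3 and 4. The 1 member at least 2-fold higher in CD4 cells under the knockout label became 3 with arrays centred on their medians, 2 with the floor at the 25th percentile, 2 with a pseudocount of 16 in place of the floor, and 0 without multi-transcript probe sets, which leaves out Cd8b1. In CD8 cells 0 lower became 1 with the floor at the 25th percentile and 1 with log2 of the value plus 16. The 5 members that rose between the subsets by limma became 2 without the trend and 3 above the floor on all arrays, and the 4 that fell became 1 without the trend, 2 without multi-transcript probe sets, and 3 (without Cd9) after quantile normalization and with median centring. For the label, 0 members that rose became 1 (Cd7) with the floor at the 25th percentile, with log2 of the value plus 16 and above the floor on all arrays; its adjusted p ran from 0.0247 to 0.319 over 9 alternatives. That of Zbtb7b for the subset ran from 0.00309 to 0.377 on the first probe set and from 0.0348 to 0.469 on the second. Over all probe sets, limma's 24 subset calls became 3 without the trend, 15 after quantile normalization, 145 with the floor at the 25th percentile, 141 with log2 of the value plus 16, 169 above the floor on all arrays and 13 with 1 value a gene. Its 78 label calls became 0 with no trend (1581 had an unadjusted p under 0.05), 24 after quantile normalization, 29 with median centring, 375 and 48 with the floor at the 25th and 60th percentile, 338 with log2 of the value plus 16, 335 above the floor on all arrays, 40 with 1 value a gene and 37 without multi-transcript probe sets. The causes were not tested unless the alternative's construction shows them. The share of higher probe sets among those 2-fold apart by label was 23.7% in CD4 and 25.5% in CD8 cells as deposited, 38.4% and 39.2% after quantile normalization and 52.6% and 45.7% with median centring, which moved the median of all probe sets to 0.28 in CD4 and 0.19 in CD8 cells. Signals near the floor, above all those of Runx3 and of Zbtb7b in CD8 cells, are the least certain.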
